A study of Mus musculus with 14 samples.

Results

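Nuclear factor kappaB (NF-kB) signalling and its cytokine and chemokine transcripts were examined in hearts of Sqstm1 knockout (KO) and wild-type (WT) mice. The set was chosen by name, with earlier results of these data known. It holds 39 genes, read from the count table through their Ensembl identifiers, of 55487 identifiers in all. It was put in 7 groups by role: 5 cytokines, 8 CC chemokines, 5 other chemokines, 8 receptors, sensors and adaptors, 4 NF-kB subunits, 3 feedback inhibitors and 6 effector and adhesion targets. Every one of the 39 had a row in the table and at least 1 read, and 34 had enough reads to be tested. Il6, Ccl4, Ccl5, Cxcl2 and Nlrp3 did not, and are given as levels.

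NF-kB transcription factors are dimers that an inhibitor, IkappaBalpha, holds in the cytoplasm. Receptors for tumour necrosis factor, interleukin-1 and bacterial products signal to a kinase that marks the inhibitor for destruction. Myd88 and Traf6 are adaptors of the receptors for interleukin-1 and bacterial products. The freed dimers turn on cytokines, chemokines, adhesion molecules and the pathway's own inhibitors. In the heart these products come from resident macrophages, endothelial cells, fibroblasts and muscle cells, and they draw leukocytes from the blood. The p62 protein, which Sqstm1 encodes, is an autophagy receptor that also binds Traf6.

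Hearts came from untreated male C57BL/6 mice, with RNA read by sequencing after depletion of ribosomal RNA. The 4 groups were KO hearts at 15 months (n = 4), WT hearts at 15 months (n = 4), KO hearts at 2 months (n = 3) and WT hearts at 2 months (n = 3). KO mice carry Myh6-Cre and Sqstm1 fl/fl, so that Cre recombinase, under a promoter active in cardiac muscle cells, removes Sqstm1 there while other cells of the heart keep it. The labels do not say whether WT mice carried Cre or floxed alleles, nor whether each heart of a group was prepared on its own, so p-values measure only the spread between these samples, which may be technical. Levels are counts relative to the scaled total of the library, on the CPM scale. Sqstm1 averaged 21.3 ± 10.505 CPM in KO hearts and 201 ± 28.3 CPM in WT hearts at 15 months (SD, n = 4 each), and 16.4 ± 2.49 CPM in KO hearts and 162 ± 20.03 CPM in WT hearts at 2 months (SD, n = 3 each). Its log2 fold change, KO over WT, was −3.23 ± 0.26 (SE, Benjamini-Hochberg adjusted p = 6.46e-05 by edgeR's quasi-likelihood test) at 15 months and −3.30 ± 0.31 (SE, Benjamini-Hochberg adjusted p = 0.000360 by edgeR's quasi-likelihood test) at 2 months. By exact permutation of the libraries (two-sided), p was 0.0286 at 15 months and 0.1 at 2 months, the smallest values that these group sizes allow. The KO libraries of each age all lay below the WT libraries.

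Total counts were 20218992 to 30404416 per library, of which 27.5% to 46.0% fell on mitochondrially encoded genes. The 39 genes together took 5162 to 23143 reads of a library. Markers of cardiac muscle (6 genes) summed to 33673 to 84238 CPM over the 14 libraries. WT replicate 1 at 2 months stood apart from the other young hearts. Its atrial markers (Myl7, Myl4, Sln and Bmp10) summed to 1270.1 CPM, against 0.889 to 2.04 CPM in the other 5 young libraries, and its 4 adipocyte markers to 36.1 CPM, against 0.443 to 1.67 CPM. Some results of the set for young hearts are therefore also given without it, where stated. Medians by role, overlap between groups and most values of single genes include it. In aged hearts the atrial markers summed to 109 CPM in KO replicate 1 and to 148, 27.0 and 48.9 CPM in WT replicates 1, 2 and 4. They summed to 1.15, 2.50 and 1.18 CPM in KO replicates 2, 3 and 4 and to 1.95 CPM in WT replicate 3. The libraries may thus not all hold the same parts of the heart. How much atrium each library holds was not tested. The length slope of a library, the regression of its log2 levels (relative to the mean of all libraries) on log2 exon length, was between −0.18 and −0.01 in the 6 young libraries and above 0 in 6 of the 8 aged ones. The exceptions were KO replicate 1, at −0.09, which also had the highest mitochondrial share, and WT replicate 2, at −0.07.

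Promoter sequence was read for the genes of the set to show where their start sites carry the letters of the kappaB consensus, the sequence that NF-kB dimers are known to bind. RefSeq start sites on GRCm38.p6 gave windows of 300 bases, 250 before to 50 after the start, for 29 of the 39 genes. Ccl2, Ccl4, Ccl5, Ccl7, Ccl11, Cxcl16, Nfkb1, Relb, Tlr4 and Vcam1 had none in the table used. A gene with several start sites had several windows (32851 over all genes) and counted as matched if any of them held a match. The consensus was searched on both strands, and overlapping matches were kept. It was found for 10 of 29 genes (34.5%), namely Il6, Ccl9, Cxcl1, Cxcl2, Il1r1, Tlr2, Nlrp3, Nfkb2, Nfkbia and Tnfaip3, against 5.14% of 27025 genes with such a window. The 5 stretches below, of 120 bases each and ending before the start site, are shown because they belong to a pair of neighbouring neutrophil chemokines (Cxcl1 and Cxcl2), the cytokine Il6, the pathway's own inhibitor (Nfkbia) and a chemokine whose level differed between the ages (Ccl9). They were chosen after the values were seen. Capitals mark the matched letters.
Cxcl1: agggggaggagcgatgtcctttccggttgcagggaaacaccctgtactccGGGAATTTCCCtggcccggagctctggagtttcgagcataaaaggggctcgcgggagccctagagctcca
Cxcl2: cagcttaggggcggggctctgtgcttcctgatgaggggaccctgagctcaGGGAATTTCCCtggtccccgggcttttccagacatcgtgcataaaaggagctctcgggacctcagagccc
Il6: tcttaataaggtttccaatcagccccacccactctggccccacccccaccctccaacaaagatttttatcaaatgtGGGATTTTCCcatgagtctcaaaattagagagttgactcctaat
Nfkbia: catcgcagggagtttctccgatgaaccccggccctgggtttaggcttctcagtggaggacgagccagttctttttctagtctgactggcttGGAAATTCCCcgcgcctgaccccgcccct
Ccl9: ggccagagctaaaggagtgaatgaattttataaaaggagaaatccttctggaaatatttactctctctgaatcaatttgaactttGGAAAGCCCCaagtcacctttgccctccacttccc
They lie at chr5:90891124-90891243 (plus strand), chr5:90903752-90903871 (plus strand), chr5:30012994-30013113 (plus strand), chr12:55492648-55492767 (minus strand) and chr11:83578637-83578756 (minus strand), and each is written in the direction of its gene. In Cxcl1 and in Cxcl2 the capitals hold a match on each strand, offset by 1 base. The 10 letters GGGAATTTCC of Cxcl1 stand, on either strand, in the windows of 29 genes (0.107%), of which 3 are in the set: Cxcl1, Cxcl2 and Nfkbia, whose capitals are the same letters read on the other strand. A match describes the letters only.

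Levels per kilobase of exon spanned more than 2 orders of magnitude among the 39 genes. Cxcl12, a chemokine that retains Cxcr4-bearing cells, was highest, with a mean over the 14 libraries of 17.02 CPM per kilobase (range 8.92 to 40.3). Nfkbia, which encodes IkappaBalpha, followed at 13.5 CPM per kilobase (range 10.4 to 19.9), and Tnfrsf1a, the main signalling receptor for tumour necrosis factor, at 9.23 CPM per kilobase (range 5.81 to 15.9). The next were Ccl6, a CC chemokine of mouse macrophages, at 7.06 CPM per kilobase (range 3.78 to 11.4), and Rela, the p65 subunit, at 5.90 CPM per kilobase (range 3.73 to 10.3). Some inflammatory ligands that NF-kB is known to turn on were near the bottom: Tnf was at 0.207 CPM per kilobase (range 0.0308 to 0.456), Il1b at 0.185 CPM per kilobase (range 0.0232 to 0.610), Il6 at 0.0738 CPM per kilobase (range 0 to 0.751) and Cxcl2 at 0.0627 CPM per kilobase (range 0.0178 to 0.300). Others stood higher, with Ccl2 at 1.75 CPM per kilobase (range 0.322 to 3.81) and Cxcl1 at 0.471 CPM per kilobase (range 0.189 to 1.53). No gene was separated from its neighbour in this order by its range over the libraries. Il6 had 5 reads in all 4 KO and 5 in all 4 WT hearts at 15 months, and 2 in the KO and 53 in the WT hearts at 2 months, of which 47 were in WT replicate 1. In RNA of heart tissue, fewer cells of a type and less RNA per cell cannot be told apart.

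**Figure D1:**
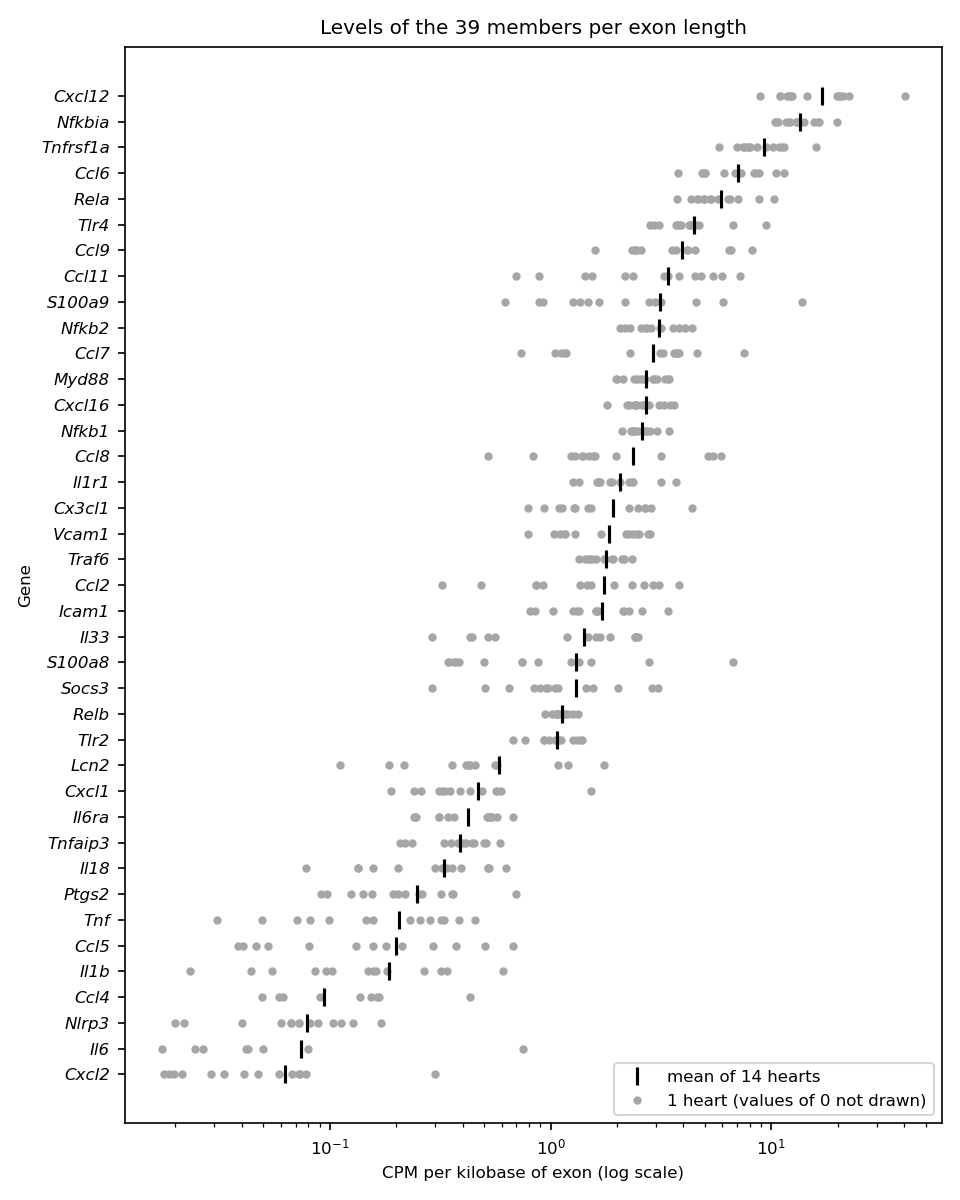
Level of each of the 39 genes in every heart (grey points, CPM per kilobase of exon, log axis) with the mean of 14 hearts (black bar), ordered by that mean. Cxcl12 and Nfkbia lie at the top and Il6 and Cxcl2 at the bottom, and values of 0 are not drawn.

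Of the 39 genes, 11 lie on chromosome 11 (GRCm38). Ccl2, Ccl7, Ccl11 and Ccl8 stand within chr11:82035571-82116799, and Ccl5, Ccl9, Ccl6 and Ccl4 within chr11:83525778-83664683. Cxcl1 and Cxcl2 are neighbours on chromosome 5, and S100a8 and S100a9 on chromosome 3. Exons of 7 genes overlap a gene on the other strand: Cxcl16, Icam1, Il1b, Il6ra, Myd88, Nfkb2 and Vcam1. The strand setting of the counting is not given in the sources used here, so reads of these overlaps are uncertain. The overlap was largest for Cxcl16, with 18.3% of its exon bases shared with Zmynd15, and smallest for Vcam1, with 0.688%. Myd88 shares 11.3% with Acaa1a, which had 8535 reads over the 14 libraries, against 2467 for Myd88.

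**Figure D2:**
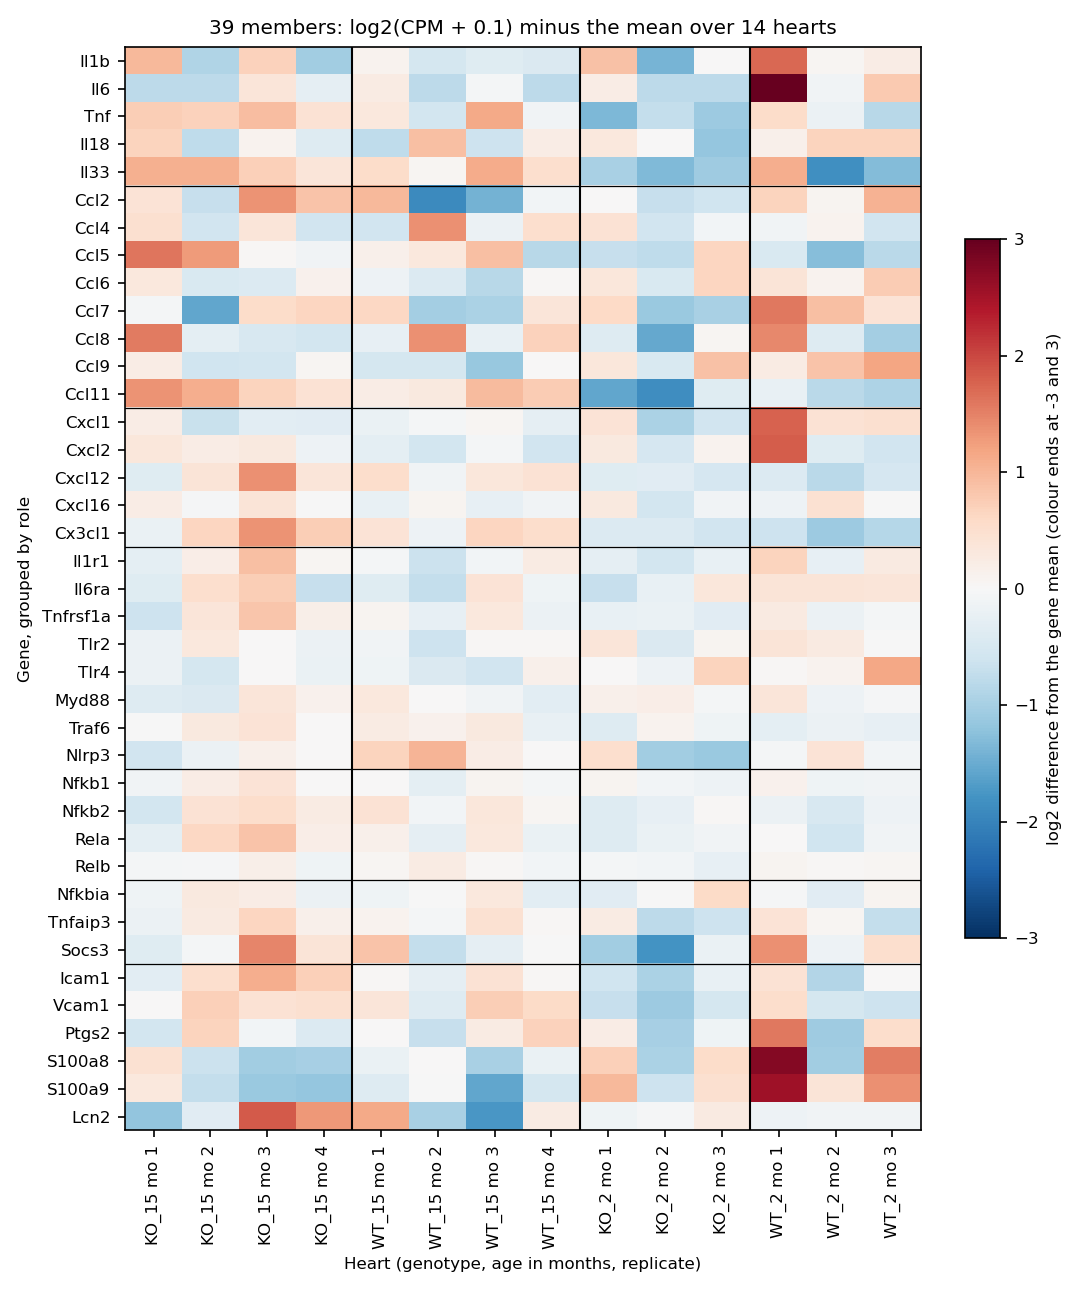
Heat map of log2(CPM + 0.1) for the 39 genes (down, by role) in 14 hearts (across, by group), each relative to the gene's mean over all hearts, with colour ends at −3 and 3. The column of WT replicate 1 at 2 months is dark red for Il6, S100a8 and S100a9, and that of KO replicate 3 at 15 months is red across many roles.

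At 2 months, none of the 34 tested genes passed the test between KO and WT hearts (edgeR quasi-likelihood test, with 6 at an unadjusted p under 0.05, or 17.6%, against 3.18% of all genes). Most lay lower in KO hearts: 27 of 34 had a log2 fold change below 0, with a median of −0.48, while the median of all 15528 genes tested was 0.00. With the length slope as a covariate and WT replicate 1 kept, 27 of 34 were below 0, with a median of −0.46. In that fit none passed, and 9 were at an unadjusted p under 0.05 (edgeR quasi-likelihood test, 26.5%, against 5.89% of all genes). With WT replicate 1 in the fit, all 4 tested cytokines and all 6 tested CC chemokines were below 0, with medians of −1.05 and −0.75. So were 5 of 6 effector and adhesion targets, with a median of −0.85. Without that heart the cytokine Il33 and the CC chemokine Ccl8 were above 0, as given below. The 4 NF-kB subunits differed less, between −0.19 and 0.07. Over all genes, 0.00644% passed the test, which is Sqstm1 alone, by edgeR, DESeq2 called 7 genes, and neither tool called a gene of the set.

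The 6 genes at an unadjusted p under 0.05 in the fit without a covariate were Socs3, S100a8, Tnf, Cxcl1, Ccl7 and S100a9. Cxcl1, a neutrophil-attracting chemokine and classical NF-kB target, was at 1.06, 0.355 and 0.485 CPM in KO hearts, against 2.87, 1.07 and 1.12 CPM in WT hearts. Every KO value lay below every WT value, but KO replicate 1 nearly reached the lowest WT heart. Its log2 fold change was −1.44 ± 0.47 (SE, Benjamini-Hochberg adjusted p = 0.9997 by edgeR's quasi-likelihood test). Socs3, which blocks signalling by the interleukin-6 receptor, was at 1.46, 0.842 and 2.75 CPM in KO hearts, against 8.30, 2.81 and 4.52 CPM in WT hearts, again without overlap, and its log2 fold change was −1.63 (SE 0.57). Tnf was at 0.0505, 0.133 and 0.0809 CPM in KO hearts, from 6 reads in all, against 0.465, 0.239 and 0.116 CPM in WT hearts, from 19 reads. The ranges of Tnf overlapped, as did those of Ccl7, S100a8 and S100a9. The groups did not overlap for 7 of 34 genes, Cx3cl1 higher and Ccl2, Cxcl1, Il6ra, Relb, Socs3 and Tnfrsf1a lower in KO hearts, and for 8.15% of all genes.

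WT replicate 1 was the highest of the 6 young hearts for 21 of 34 tested genes (61.8%), and for 20.02% of all genes. Il6 was at 1.82 CPM there and at 0 to 0.193 CPM in the other young hearts. S100a8 and S100a9, the subunits of a calcium-binding protein that neutrophils hold in large amounts, were at 4.65 CPM and 7.21 CPM there, against highest values of 1.93 and 3.17 CPM in the other 5. Il33, an alarmin of stromal and endothelial cells, was at 7.02 CPM, against 0.836 to 1.62 CPM. Of 10 marker lists, those of atrial muscle and adipocytes (above), neutrophils, macrophages and fibroblasts were highest of the young hearts in that library: 10 neutrophil markers summed to 4.42 CPM against 0.488 to 1.85 CPM in the other 5 young hearts, 14 macrophage and monocyte markers to 218 against 138 to 182 CPM, and 6 fibroblast markers to 958 against 378 to 563 CPM. Of the neutrophil markers, Mpo had no read in any of the 14 libraries and Ly6g and Elane had 2 each. That library lay within the range of the other 5 young hearts for endothelial markers (405 against 322 to 439 CPM), and likewise for cardiac muscle, T and NK cell, B cell and red blood cell markers. Macrophage and neutrophil markers summed to less in every KO than in every WT heart at 2 months, to 138 to 169 CPM in KO and 174 to 218 CPM in WT hearts for macrophages and 0.488 to 1.01 CPM in KO and 1.55 to 4.42 CPM in WT hearts for neutrophils. With WT replicate 1 in the fit, all 14 macrophage and all 6 fibroblast markers had a log2 fold change below 0, with medians of −0.34 and −0.62, and none passed the test. Fold changes of markers were not read without that heart. The fibroblast sums of the genotypes overlapped, at 398 to 495 CPM in KO hearts and 958, 563 and 378 CPM in WT hearts. The part of these markers in the lower KO values of the set was not tested.

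Without WT replicate 1, 24 of 36 tested genes were below 0, with a median of −0.19, and none was at an unadjusted p under 0.05. Of the 6 genes above, all stayed below 0, with log2 fold changes of −1.11 for Socs3, −0.58 for S100a8, −0.88 for Tnf, −0.80 for Cxcl1, −0.99 for Ccl7 and −0.59 for S100a9. Il33 had −1.09 with that heart and 0.43 without it, and Ccl8, a monocyte chemokine, had −0.99 with it and 0.26 without it. Ccl2, the main monocyte-attracting chemokine, barely moved (−1.12 with and −1.11 without).

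**Figure D3:**
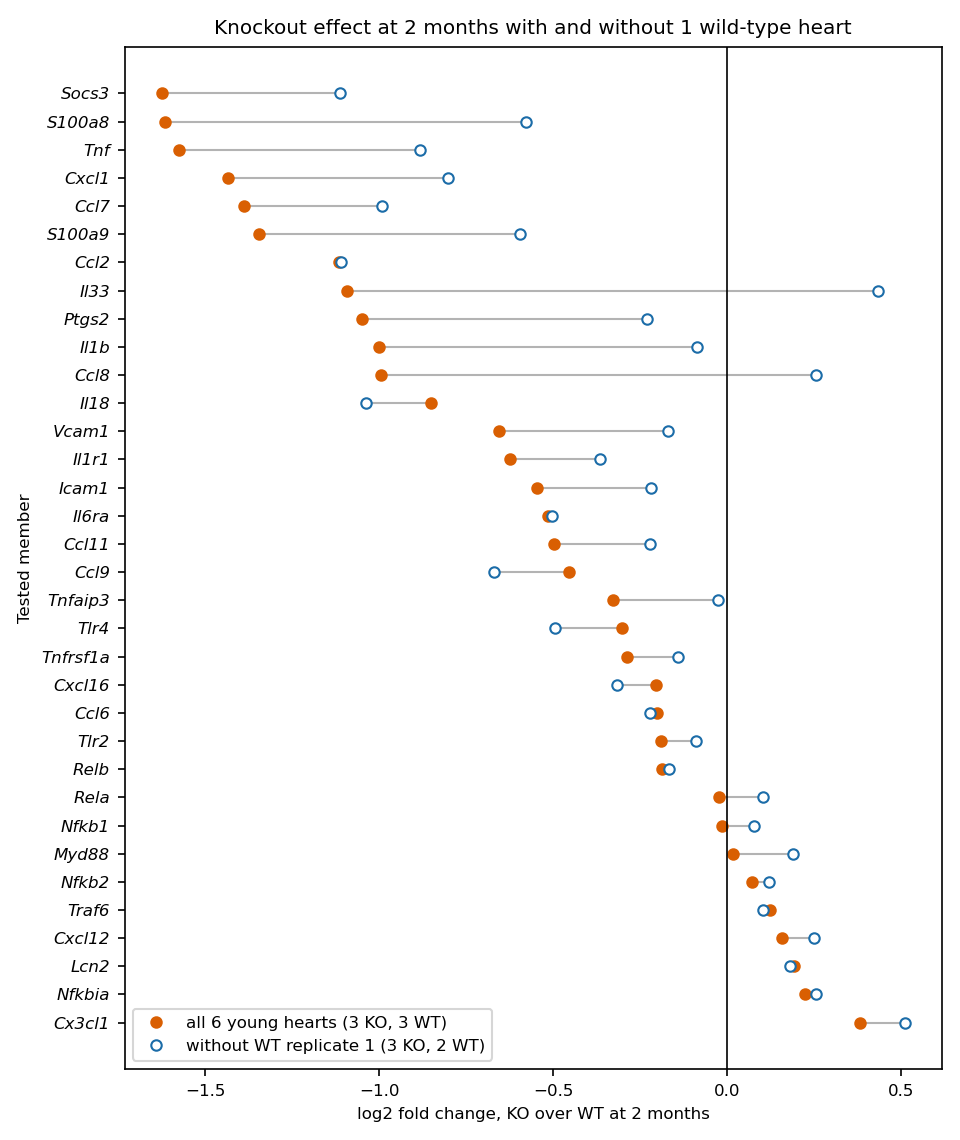
Log2 fold change of each tested gene, KO over WT at 2 months, in all 6 young hearts (filled) and without WT replicate 1 (open), joined by a grey line. Il33 and Ccl8 cross 0 when that heart is left out, while Ccl2 and Il6ra stay in place.

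At 15 months the genotypes overlapped for every tested gene of the set. None of the 34 passed the test, and none was at an unadjusted p under 0.05 with the edgeR quasi-likelihood test, nor was any called by DESeq2. Over all genes, 0.00644% passed and 1.99% did not overlap. More genes lay above 0 than below, 26 of 34, with a median log2 fold change of 0.22 against 0.01 over all genes, and with the length slope as a covariate 23 of 34 did, with a median of 0.10. Rela was at 14.1, 27.0, 31.5 and 19.98 CPM in KO hearts and 19.5, 14.4, 21.8 and 15.2 CPM in WT hearts, with a log2 fold change of 0.39 (SE 0.22). Icam1, an endothelial adhesion molecule that leukocytes bind, was at 5.50, 9.87, 14.8 and 11.3 CPM in KO hearts and 7.13, 5.74, 9.32 and 7.04 CPM in WT hearts, with 0.51 (SE 0.30). KO replicate 3 gave the highest value of both. That heart was the highest of all 14 for 15 of 34 genes (44.1%), and for 17.5% of all genes. It also had the highest sum of 6 endothelial markers, 1343 CPM, whereas the other aged hearts reached 777 CPM at most. Of all 14 libraries it had the highest length slope (0.24), the lowest mitochondrial share (27.5%) and the largest total count (30404416). The part of each of these in the levels was not tested.

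Averaged over both ages, 24 of 34 genes were lower in KO hearts, with a median log2 fold change of −0.10. None passed the test (0.00644% of all genes did), and Cxcl1, at −0.80 (SE 0.31), was the 1 gene at an unadjusted p under 0.05. Without WT replicate 1 at 2 months, 20 of 36 were above 0 and the median was 0.01. The KO effect at 15 months minus that at 2 months was tested as a contrast of its own. It was above 0 for 29 of 34 genes, with a median of 0.71 against 0.01 over all genes, and no gene of the set passed (0.0% of all genes did). The 5 genes at an unadjusted p under 0.05 (14.7%, against 3.72% of all genes) were Tnf, Ccl2, Il1r1, Socs3 and Icam1. Socs3 had 2.10 (SE 0.74) and Tnf 2.01 (SE 0.88). Without WT replicate 1 at 2 months, 27 of 36 were above 0, the median was 0.39 and no gene was at an unadjusted p under 0.05. With the length slope as a covariate and that heart kept, 28 of 34 were above 0, with a median of 0.54. In that fit 3 were at an unadjusted p under 0.05 (edgeR quasi-likelihood test, 8.82%, against 6.41% of all genes). In every alternative tried, none of the set passed any of these 4 contrasts of genotype.

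Between ages, 11 of 34 tested genes passed the test when 15 and 2 months were compared on the average of both genotypes (32.4%), against 23.9% of all genes. Of these, 7 rose (Ccl11, Cx3cl1, Cxcl12, Il33, Tnf, Traf6 and Vcam1), where 10.8% of all genes did, and 4 fell (Ccl9, Tlr4, S100a8 and S100a9), where 13.1% of all genes did. The median log2 fold change of the tested genes was 0.11, against 0.00 over all genes, with 20 of 34 above 0. It was 0.25 without WT replicate 1 at 2 months, and −0.22, with 12 of 34 above 0, with the length slope of the library as a covariate. By role, the rises were 2 of 4 tested cytokines, 1 of 6 CC chemokines, 2 of 4 other chemokines, 1 of 7 receptors, sensors and adaptors and 1 of 6 effector and adhesion targets, and the falls 1 CC chemokine, 1 receptor and 2 effectors. None of the 4 NF-kB subunits and 3 feedback inhibitors passed. Without WT replicate 1 at 2 months, 7 rose and 3 fell. The number that passed was 6 without KO replicate 1 at 2 months, 7 without KO replicate 3 at 2 months and 7 without WT replicate 3 at 2 months. It was 16 without KO replicate 1 at 15 months, where 5589 of 15617 genes passed. The smaller counts also went with fewer genes over all, 1531 of 16174 genes, 2054 of 15863 genes and 2420 of 16133 genes. With the length slope of the library as a covariate, 1 gene of the 11 passed, Ccl11, and 214 of 15528 genes in all.

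Among the chemokines, Ccl11, known as eotaxin and an attractant of eosinophils, was at 7.82, 6.50, 4.88 and 4.12 CPM in 15-month KO hearts and 3.55, 3.70, 5.91 and 5.20 CPM in 15-month WT hearts. In young hearts it was at 0.960, 0.753 and 2.35 CPM in 2-month KO hearts and 2.56, 1.67 and 1.55 CPM in 2-month WT hearts. Every aged heart lay above every young heart, in both genotypes. The log2 fold change was 1.67 ± 0.26 (SE, Benjamini-Hochberg adjusted p = 0.00195 by edgeR's quasi-likelihood test), and it passed under all 23 alternatives, between 1.52 and 2.00. Cx3cl1, a membrane-bound chemokine of endothelial cells, was at 5.83, 10.499, 17.2 and 11.2 CPM in 15-month KO hearts and 8.92, 6.02, 10.52 and 9.77 CPM in 15-month WT hearts, against 5.05, 5.01 and 4.45 CPM in 2-month KO hearts and 4.30, 3.10 and 3.67 CPM in 2-month WT hearts. The ages did not overlap here either, and KO replicate 3 was the highest aged heart. The age effect as a log2 fold change was 1.23 ± 0.21 (SE, Benjamini-Hochberg adjusted p = 0.00299 by edgeR's quasi-likelihood test). Ccl11 and Cx3cl1 were the 2 genes of 34 without overlap between all aged and all young hearts, both higher with age (1.86% of all genes were), and none was lower without overlap (1.4% were, 3.26% in either direction).

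Cxcl12 was at 99.9, 167, 329 and 165 CPM in 15-month KO hearts and 184, 119, 162 and 173 CPM in 15-month WT hearts. In young hearts it was at 98.9, 101 and 89.6 CPM in 2-month KO hearts and 96.7, 72.9 and 89.8 CPM in 2-month WT hearts. All aged hearts but KO replicate 1 lay above the young ones, and KO replicate 3 was well above the next. On the log2 scale, 15 over 2 months was 0.93 ± 0.21 (SE, Benjamini-Hochberg adjusted p = 0.0101 by edgeR's quasi-likelihood test). Ccl9, a CC chemokine made by macrophages in mice, was lower with age, at 12.7, 7.13, 7.37 and 11.3 CPM in 15-month KO hearts and 7.41, 7.41, 4.84 and 10.8 CPM in 15-month WT hearts, against 13.8, 7.80 and 20.1 CPM in 2-month KO hearts and 12.7, 19.6 and 24.8 CPM in 2-month WT hearts. The highest aged and the lowest young hearts overlapped. Its log2 fold change was −0.93 ± 0.23 (SE, Benjamini-Hochberg adjusted p = 0.0155 by edgeR's quasi-likelihood test). Ccl6, next to Ccl9 on chromosome 11, was at 15.0, 8.80, 9.03 and 13.1 CPM in 15-month KO hearts and 10.9, 8.99, 6.79 and 12.3 CPM in 15-month WT hearts, against 15.4, 8.73 and 18.9 CPM in 2-month KO hearts and 15.9, 13.01 and 20.5 CPM in 2-month WT hearts, with ages that overlapped. It had −0.54 ± 0.20 (SE, Benjamini-Hochberg adjusted p = 0.0567 by edgeR's quasi-likelihood test) and did not pass. Cx3cl1, Cxcl12 and Ccl9 did not pass in 1 of 23 alternatives, the length slope covariate (adjusted p = 0.130, 0.602 and 0.634).

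Of the cytokines, Il33 was at 6.96, 6.99, 5.39 and 4.25 CPM in 15-month KO hearts and 4.86, 3.42, 7.18 and 4.64 CPM in 15-month WT hearts. In young hearts it was at 1.62, 1.24 and 1.496 CPM in 2-month KO hearts and 7.02, 0.836 and 1.28 CPM in 2-month WT hearts. WT replicate 1 at 2 months was as high as the highest aged hearts, and the other 5 young hearts lay below all 8 aged ones. Its log2 change with age was 1.36 ± 0.38 (SE, Benjamini-Hochberg adjusted p = 0.0215 by edgeR's quasi-likelihood test) and 2.13 without that heart (adjusted p = 0.000118). It no longer passed without 2-month KO replicate 1 (adjusted p = 0.0530). Tnf was at 0.539, 0.521, 0.632 and 0.421 CPM in 15-month KO hearts and 0.379, 0.163, 0.747 and 0.258 CPM in 15-month WT hearts, against 0.0505, 0.133 and 0.0809 CPM in 2-month KO hearts and 0.465, 0.239 and 0.116 CPM in 2-month WT hearts. These levels rest on 56 and 45 reads in the aged KO and WT groups, and 6 and 19 reads in the young KO and WT groups. The ages overlapped in WT hearts and not in KO hearts. The log2 fold change was 1.51 ± 0.44 (SE, Benjamini-Hochberg adjusted p = 0.0253 by edgeR's quasi-likelihood test), and Tnf no longer passed when any 1 of 4 libraries was left out, namely 2-month KO replicates 1 and 3 or 2-month WT replicates 2 and 3 (adjusted p = 0.0549 to 0.0728). Il18 and Il1b, both matured by the inflammasome, had −0.18 (SE 0.46) and −0.69 (SE 0.55) and did not pass.

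**Figure D4:**
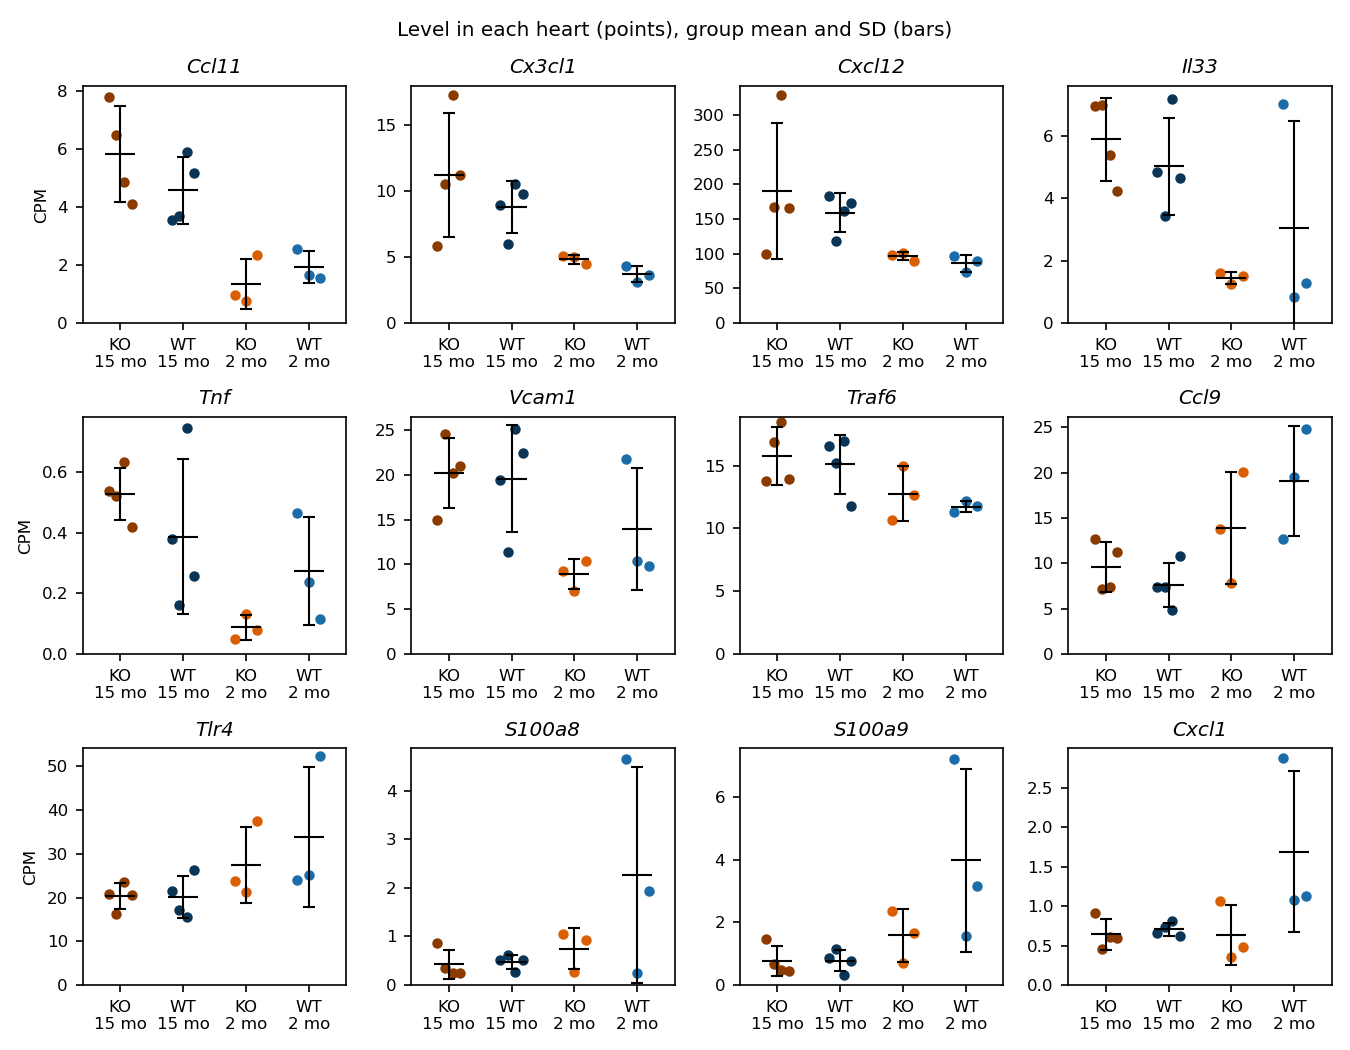
Levels (CPM) of the 11 genes that passed the age test and of Cxcl1 in each heart (points), with the group mean and SD (bars), for KO and WT hearts at 15 and at 2 months. Ccl11 and Cx3cl1 are higher in every aged heart, and WT replicate 1 at 2 months is the high point of its group for Il33, Vcam1, S100a8, S100a9 and Cxcl1 (the lower SD bar of Il33 there runs below the axis).

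Of the receptors, sensors and adaptors, Tlr4, the receptor for bacterial lipopolysaccharide, was at 20.7, 16.3, 23.6 and 20.5 CPM in 15-month KO hearts and 21.6, 17.2, 15.7 and 26.2 CPM in 15-month WT hearts. In young hearts it was at 23.8, 21.2 and 37.4 CPM in 2-month KO hearts and 24.0, 25.3 and 52.3 CPM in 2-month WT hearts. The replicate 3 hearts of both genotypes were the highest young ones, and the ages overlapped. The age effect as a log2 fold change was −0.59 ± 0.19 (SE, Benjamini-Hochberg adjusted p = 0.0396 by edgeR's quasi-likelihood test). It no longer passed when any 1 of 9 libraries was left out, namely 15-month KO replicates 2, 3 and 4, 15-month WT replicates 1, 2 and 3, 2-month KO replicates 1 and 3 or 2-month WT replicate 3 (adjusted p = 0.0542 to 0.145). Traf6, a ubiquitin ligase that passes signals of Toll-like and interleukin-1 receptors on, was at 13.8, 16.9, 18.5 and 13.97 CPM in 15-month KO hearts and 16.5, 15.2, 16.95 and 11.8 CPM in 15-month WT hearts, against 10.7, 15.0 and 12.7 CPM in 2-month KO hearts and 11.3, 12.2 and 11.7 CPM in 2-month WT hearts. The groups overlapped, and the change was the smallest of those that passed, 0.34 ± 0.12 (SE, Benjamini-Hochberg adjusted p = 0.0482 by edgeR's quasi-likelihood test). It no longer passed when any 1 of 11 libraries was left out, namely 15-month KO replicates 2, 3 and 4, 15-month WT replicates 1, 2 and 3, 2-month KO replicates 1 and 3 or 2-month WT replicates 1, 2 and 3 (adjusted p = 0.0531 to 0.130). Tnfrsf1a was at 15.0, 29.7, 41.2 and 26.2 CPM in 15-month KO hearts and 24.4, 19.4, 29.1 and 20.6 CPM in 15-month WT hearts, against 19.8, 20.3 and 18.2 CPM in 2-month KO hearts and 28.1, 20.7 and 22.3 CPM in 2-month WT hearts, and had 0.26 (SE 0.18). The other tested receptors and adaptors, Il1r1, Il6ra, Tlr2 and Myd88, lay between −0.20 and 0.13 and did not pass.

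The 4 NF-kB subunits all had a log2 fold change above 0 with age and none passed. Rela was at 14.1, 27.0, 31.5 and 19.98 CPM in 15-month KO hearts and 19.5, 14.4, 21.8 and 15.2 CPM in 15-month WT hearts, against 13.2, 15.2 and 16.2 CPM in 2-month KO hearts and 17.6, 11.5 and 16.3 CPM in 2-month WT hearts, with a log2 fold change of 0.43 ± 0.17 (SE, Benjamini-Hochberg adjusted p = 0.0791 by edgeR's quasi-likelihood test). Nfkb2, which encodes the p100 precursor of p52, was at 9.49, 18.6, 20.02 and 16.5 CPM in 15-month KO hearts and 18.6, 13.02, 17.5 and 14.4 CPM in 15-month WT hearts, against 10.51, 11.7 and 14.3 CPM in 2-month KO hearts and 12.3, 9.97 and 12.5 CPM in 2-month WT hearts, with 0.43 ± 0.16 (SE, Benjamini-Hochberg adjusted p = 0.0584 by edgeR's quasi-likelihood test). In both, KO replicate 1 was the lowest aged heart. For Rela it lay among the young ones, and for Nfkb2 it lay below every young heart. With the length slope as a covariate, 3 of the 4 were below 0, at −0.16 for Rela, −0.08 for Nfkb2 and −0.17 for Nfkb1. Nfkb1 and Relb had 0.09 (SE 0.10) and 0.06 (SE 0.11). Relb was the steadiest gene of the set, between 3.68 and 5.17 CPM over the 14 hearts.

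The feedback inhibitors did not pass either. Nfkbia was at 19.4, 26.1, 25.0 and 18.8 CPM in 15-month KO hearts and 19.5, 21.2, 26.5 and 17.2 CPM in 15-month WT hearts, against 16.97, 21.3 and 32.0 CPM in 2-month KO hearts and 20.8, 16.8 and 22.6 CPM in 2-month WT hearts, and had 0.00 (SE 0.15). Tnfaip3, which encodes the ubiquitin-editing inhibitor A20, was at 2.37, 3.27, 4.24 and 2.99 CPM in 15-month KO hearts and 2.89, 2.56, 3.70 and 2.76 CPM in 15-month WT hearts, against 3.18, 1.51 and 1.70 CPM in 2-month KO hearts and 3.61, 2.81 and 1.58 CPM in 2-month WT hearts, with 0.39 (SE 0.23). Socs3 was at 2.43, 3.02, 8.88 and 4.16 CPM in 15-month KO hearts and 5.82, 1.87, 2.60 and 3.13 CPM in 15-month WT hearts. With the young values given above, it had 0.41 (SE 0.37), and the groups overlapped for all 3.

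Among the effector and adhesion targets, Vcam1, an endothelial adhesion molecule for monocytes and lymphocytes, was at 15.0, 24.6, 20.2 and 21.0 CPM in 15-month KO hearts and 19.4, 11.4, 25.1 and 22.4 CPM in 15-month WT hearts. In young hearts it was at 9.24, 7.05 and 10.4 CPM in 2-month KO hearts and 21.8, 10.3 and 9.78 CPM in 2-month WT hearts. The ages did not overlap in KO hearts and overlapped in WT hearts, where replicate 1 was the highest young and replicate 2 the lowest aged heart. On the log2 scale, 15 over 2 months was 0.84 ± 0.21 (SE, Benjamini-Hochberg adjusted p = 0.0168 by edgeR's quasi-likelihood test), and it no longer passed without 2-month WT replicate 2 (adjusted p = 0.0507). S100a9 was at 1.46, 0.661, 0.482 and 0.463 CPM in 15-month KO hearts and 0.861, 1.14, 0.325 and 0.774 CPM in 15-month WT hearts, against 2.37, 0.709 and 1.66 CPM in 2-month KO hearts and 7.21, 1.55 and 3.17 CPM in 2-month WT hearts. It was lower in every aged than in every young WT heart, and overlapped in KO hearts. Its log2 change with age was −1.73 ± 0.40 (SE, Benjamini-Hochberg adjusted p = 0.0115 by edgeR's quasi-likelihood test), and −1.34 without WT replicate 1 at 2 months (adjusted p = 0.0197). S100a8, its partner, was at 0.863, 0.348, 0.241 and 0.252 CPM in 15-month KO hearts and 0.517, 0.610, 0.260 and 0.516 CPM in 15-month WT hearts, against 1.06, 0.266 and 0.930 CPM in 2-month KO hearts and 4.65, 0.239 and 1.93 CPM in 2-month WT hearts, with overlap in both genotypes. The log2 fold change was −1.57 ± 0.51 (SE, Benjamini-Hochberg adjusted p = 0.0389 by edgeR's quasi-likelihood test). S100a8 no longer passed when any 1 of 10 libraries was left out, namely 15-month KO replicates 2, 3 and 4, 15-month WT replicates 1, 3 and 4, 2-month KO replicates 1 and 3 or 2-month WT replicates 1 and 3 (adjusted p = 0.0607 to 0.118). Icam1, Ptgs2 (the inducible prostaglandin synthase) and Lcn2 (an iron-scavenging protein) had 0.64, −0.18 and 0.54 and did not pass.

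Other alternatives ended calls of the 11 as well. With no filter, Il33, Tlr4, Traf6 and S100a8 no longer passed (Benjamini-Hochberg adjusted p = 0.0747 to 0.0861 by edgeR's quasi-likelihood test). With a replicate block, Tnf, Tlr4, Vcam1 and S100a8 did not (edgeR, adjusted p = 0.0516 to 0.113), and with limma voom Tlr4, Traf6 and S100a8 did not (adjusted p = 0.0512 to 0.130). Traf6 and S100a8 did not pass with 3 libraries left out together (edgeR, adjusted p = 0.0761 to 0.0924). The length slope covariate ended all but that of Ccl11 (edgeR, adjusted p = 0.130 to 0.714).

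Within KO hearts, 2 genes rose with age and none fell, where 2.25% of all genes passed. Ccl11 had 2.08 ± 0.38 (SE, Benjamini-Hochberg adjusted p = 0.0142 by edgeR's quasi-likelihood test) and Cx3cl1 1.22 ± 0.29 (SE, Benjamini-Hochberg adjusted p = 0.0444 by edgeR's quasi-likelihood test). The ages did not overlap for 5 of 34 genes, Ccl11, Cx3cl1, Il33, Tnf and Vcam1, all higher at 15 months (20.1% of all genes did not overlap). The age effect as a log2 fold change was above 0 for 26 of 34 genes, with a median of 0.36 against 0.01 over all genes. With the length slope as a covariate, it was above 0 for 20, with a median of 0.07. The count that passed was 11 without KO replicate 1 at 15 months, where 3523 of 15617 genes passed. It was 5 without WT replicate 1 at 2 months (580 of 16034 genes) and 4 without WT replicate 2 at 15 months (614 of 15591 genes). Without KO replicate 1 or 2 at 2 months the count was 0 (49 of 16174 genes and 84 of 16163 genes), and it was 1, Ccl11, without 15-month KO replicates 2, 3 and 4, 15-month WT replicates 1 and 4, 2-month KO replicate 3 or 2-month WT replicate 3. Cx3cl1 no longer passed when any 1 of 11 libraries was left out, namely 15-month KO replicates 2, 3 and 4, 15-month WT replicates 1, 3 and 4, 2-month KO replicates 1, 2 and 3 or 2-month WT replicates 2 and 3 (adjusted p = 0.0518 to 0.173). With only the KO groups in the fit, neither passed (Benjamini-Hochberg adjusted p = 0.0598 for Ccl11 and 0.0887 for Cx3cl1 by edgeR's quasi-likelihood test), and Il33 and Vcam1 passed in their place. The comparison within KO hearts shares its estimate of spread with all 14 libraries, so a WT library can move it.

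Within WT hearts, none of 34 genes passed the edgeR quasi-likelihood test between ages, with 10 at an unadjusted p under 0.05 (29.4%, against 23.8% of all genes). Over all genes, 1.04% passed. DESeq2 called 6 of the set and 1100 of 15528 genes in all. The smallest adjusted p was 0.0557 (edgeR quasi-likelihood test, Benjamini-Hochberg), for S100a9, with a log2 fold change of −2.37 (SE 0.56). Cx3cl1 had 1.25 (SE 0.30) and Ccl11 1.25 (SE 0.36). The ages did not overlap for 8 genes, with Ccl11, Cx3cl1, Cxcl12 and Nfkb2 higher and Ccl6, Ccl9, Cxcl1 and S100a9 lower at 15 months (16.2% of all genes did not overlap). Of 34 genes, 15 were above 0, and the median was −0.05. Without WT replicate 1 at 2 months the direction turned, with 21 of 36 above 0 and a median of 0.10, whereas with the length slope as a covariate 10 of 34 were above 0, with a median of −0.36. The count that passed was 4 without KO replicate 1 at 15 months (796 of 15617 genes) and 3 without WT replicate 1 at 2 months (511 of 16034 genes). It was 2 without KO replicate 3 at 15 months (208 of 15365 genes) and 1 without WT replicate 2 at 15 months (152 of 15591 genes). The age effects of KO and WT hearts differ by the same contrast as the KO effects at the 2 ages, in which no gene of the set passed.

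**Figure D5:**
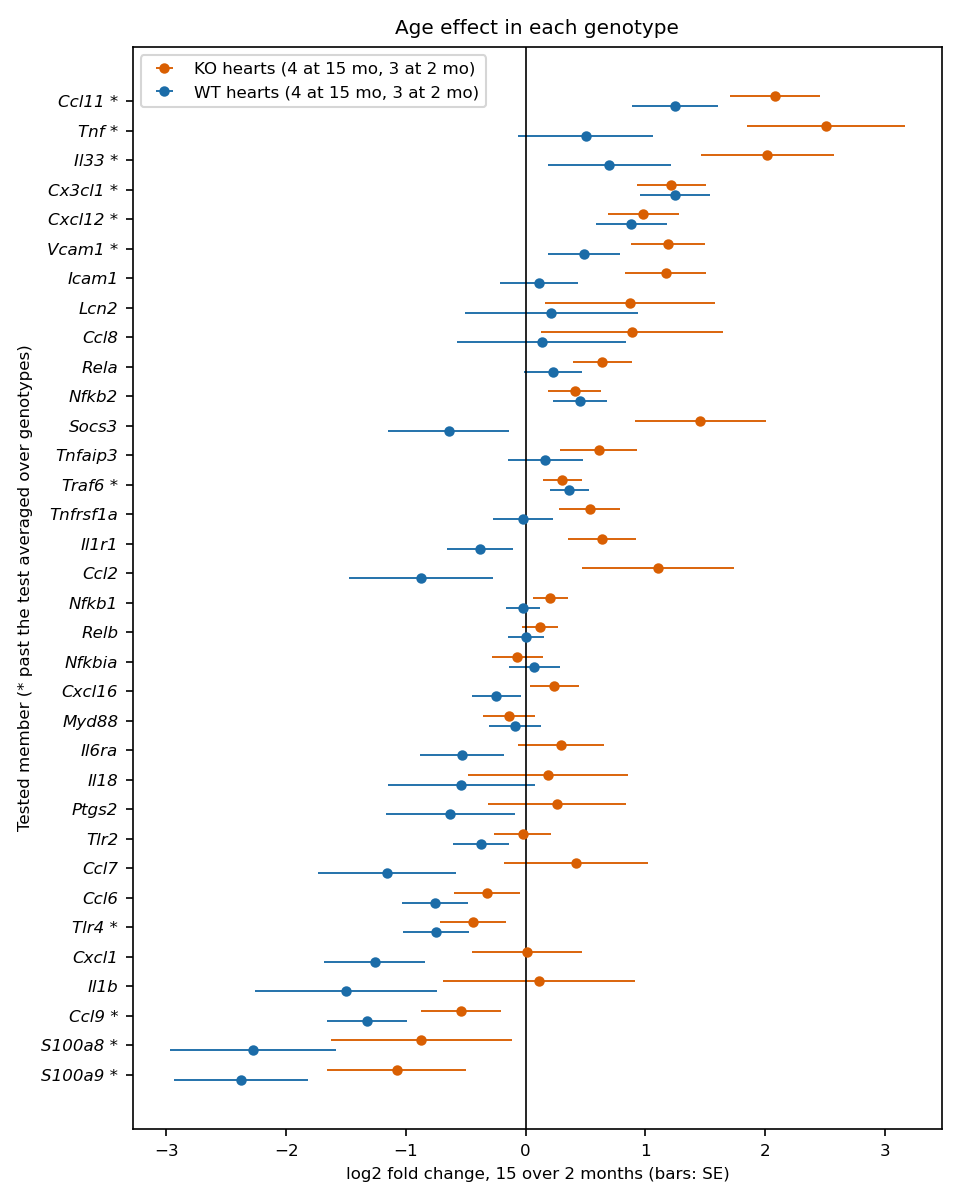
Log2 fold change of each tested gene, 15 over 2 months, with its SE, in KO hearts (orange) and WT hearts (blue), where a star marks the 11 genes that passed on the average of both. Ccl11, Cx3cl1 and Cxcl12 are above 0 in both genotypes, S100a8, S100a9 and Ccl9 are below 0 in both, and Socs3 and Ccl2 lie on opposite sides of 0.

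Cell markers were read beside these age differences, in the fit without a covariate, where 23.9% of all genes passed. They were not read with the length slope as a covariate, under which 214 of 15528 genes passed. Of 6 endothelial markers, 5 rose with age on the average of both genotypes, and their sum was 346 to 1343 CPM in aged KO, 357 to 599 in aged WT, 364 to 439 in young KO and 322 to 405 in young WT hearts. The aged hearts with a length slope below 0, KO replicate 1 and WT replicate 2, had 346 and 357 CPM, within the range of the young hearts. KO replicate 3, with the highest slope (0.24), had 1343 CPM. Of 14 macrophage and monocyte markers 1 rose (Ccr2), and their sum was 134 to 198 CPM in aged KO, 109.6 to 199 in aged WT, 138 to 169 in young KO and 174 to 218 in young WT hearts. Neutrophil markers summed to 0.971 to 1.54 CPM in aged KO, 0.651 to 1.46 in aged WT, 0.488 to 1.01 in young KO and 1.55 to 4.42 in young WT hearts, and 1 of 10, Csf3r, had enough reads to be tested and did not pass. The 6 fibroblast markers, of which none passed, summed to 478 to 757 CPM in aged KO, 280.1 to 577 in aged WT, 398 to 495 in young KO and 378 to 958 in young WT hearts. Of 6 cardiac muscle markers, 3 rose, and their sum was 41203 to 83924 CPM in aged KO, 41279.8 to 84238 in aged WT, 35274 to 52801 in young KO and 33673 to 40480.2 in young WT hearts. None of the tested T and NK cell, B cell, adipocyte, atrial and red blood cell markers passed. The part of these cells in the age differences of Cx3cl1, Vcam1, Cxcl12, S100a8 and S100a9 was not tested, nor was that of the atrial markers, at 1.15 to 109 CPM in aged KO, 1.95 to 148 in aged WT, 1.46 to 2.04 in young KO and 0.889 to 1270.1 CPM in young WT hearts.

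Beyond the 39 genes, 141 genes of 6 related lists were read in the same way, and none of them passed any contrast of genotype. The age calls of these 6 lists are of the fit without a covariate. They were not read with the length slope as a covariate, under which 214 of 15528 genes passed on the average of both genotypes. Of 37 other NF-kB pathway genes, 5 rose and 2 fell with age on the average of both genotypes, with a median log2 fold change of 0.10. Their share that passed, 7 of 37, was below the 23.9% of all genes. Prkcz, an atypical protein kinase C that partners p62, was at 2.23 to 4.10 CPM in aged KO and 3.05 to 4.56 CPM in aged WT hearts, against 1.21 to 1.51 CPM in young KO and 0.597 to 1.98 CPM in young WT hearts, a log2 fold change of 1.40 ± 0.24 (SE, Benjamini-Hochberg adjusted p = 0.00316 by edgeR's quasi-likelihood test). Irak3, an inhibitory kinase of Toll-like receptor signalling, had 0.83, and Tab2, an adaptor of the kinase Tak1, 0.34 (edgeR quasi-likelihood test, Benjamini-Hochberg adjusted p = 0.00589 and 0.0122). The others that rose were Tab3 (0.34) and Cyld (0.29), a deubiquitinase that restrains the pathway, and those that fell were Ticam1 (−0.50), the adaptor Trif, and Bcl10 (−0.35).

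Of 24 other receptors, 20 were tested, and Il6st (0.45), the shared signalling chain of the interleukin-6 family, and Ccr2 (1.20), the receptor for Ccl2, rose while Il13ra1 fell (−0.76). Of 32 other chemokines and cytokines, 17 were tested, Tnfsf10 rose (0.92) and Ccl27a fell (−0.999). Of 20 other Toll-like receptor and inflammasome genes, 19 were tested and Pycard, the adaptor of the inflammasome, fell (−1.06). Of 12 STAT3 and SOCS genes, Jak1 (0.44) and Socs6 (0.32) rose, and the feedback inhibitors Cish (−1.35) and Socs2 (−0.69) fell. Cish was at 18.9 to 33.8 CPM in aged KO and 30.1 to 38.6 CPM in aged WT hearts, against 80.4 to 87.4 CPM in young KO and 48.1 to 95.4 CPM in young WT hearts, without overlap of the ages. Of 16 immediate early genes, Ier3 rose (0.51) and Fosb (−3.76), Atf3 (−3.50), Nr4a1 (−2.43) and Fos (−1.90) fell. The shares that passed were below 23.9% in the receptor, chemokine and Toll-like receptor lists, at 3 of 20, 2 of 17 and 1 of 19, and above it in the STAT3 and SOCS and immediate early lists, at 4 of 12 and 5 of 16. The values in parentheses are log2 fold changes at 15 over 2 months, averaged over both genotypes. The young hearts varied widely for immediate early genes: Atf3 was at 4.85, 2.97 and 30.2 CPM in KO and 6.13, 4.12 and 105 CPM in WT hearts at 2 months.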

How the data were processed

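The authors deposited raw read counts per gene for 14 libraries, whole numbers with no normalization. The kit was stranded with depletion of ribosomal RNA, per the labels' protocols. Per the submitters' processing notes, the build was GRCm38 and the tools were STAR 2.7.3a, cutadapt 1.16, DESeq2 1.26.0 and featureCounts 1.6.3. What the sources used here do not give is the strand setting, the annotation release and how reads with several matches were counted. Symbols, positions and exon lengths came from GENCODE M21, which held 55227 of 55487 identifiers. The table held 0 columns without a sample. Within a group, libraries differed by a chi-square of at least 30.2 per degree of freedom, so none repeats another.

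Testing used edgeR 4.0.16 (R 4.3.3). Genes were kept by filterByExpr, given the 4 groups, at a count of 10 and a total of 15, libraries were scaled by TMM, and 1 robust quasi-likelihood model, with a mean for each group, took in all 14 libraries. Its F-test was made for 7 contrasts, with Benjamini-Hochberg adjustment over 15528 genes. A gene passed at an adjusted p under 0.05, whatever its fold. CPM is relative to the TMM-scaled total, and means are given with the SD. For the SE, the log2 fold change was divided by the root of its F statistic. The labels name no molecular identifiers, so copies of 1 molecule may be counted more than once. Alternatives were RLE scaling, no filter, a mean CPM of at least 1, only the groups compared, a replicate block, DESeq2 1.42.0, limma voom 3.58.1 and each library left out in turn. A length slope covariate and 3 libraries left out together were chosen after seeing the data. Values of every library are given for members past the threshold, for the 2 of each role with the smallest p and for the highest per exon length of each role. Cxcl1, Icam1 and Atf3 were added after their values were seen. Of each related list the rule names up to 3 genes past the threshold, and the others named were added likewise. Members and lists were chosen with earlier results of these data known.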

Additional observations from a re-analysis of the deposited data

Results flagged for a closer look

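Levels of the 39 genes and of Sqstm1 in the groups of 4 hearts, 80 groups in all, were searched for a heart far from the other 3 (gap over range above Dixon's 95% critical value). Chance gives about 1 in 20, and 2 were found. Ccl8 was at 3.02 CPM in KO replicate 1 at 15 months, from 56 reads, against 0.631 to 0.765 CPM in the other 3 KO hearts. Sqstm1 was at 37.0 CPM in KO replicate 2 at 15 months, against 14.6 to 17.6 CPM in the other 3, and remained below every WT heart.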

How the results depend on the processing

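No gene of the set passed any of the 4 contrasts of genotype under any of 23 alternatives. For 15 against 2 months averaged over both genotypes (11 genes), 7 passed with no filter, 7 with a replicate block, 1 with the length slope covariate and 6 to 16 with 1 library left out. Within KO hearts (2 genes), 1 passed with a replicate block, 1 with limma voom, 1 with the length slope covariate, 2 others (Il33 and Vcam1) with only the groups compared, 6 with DESeq2, 6 without 3 libraries (WT replicate 1 at 2 months and KO replicates 1 and 3 at 15 months) and 0 to 11 with 1 library left out. Within WT hearts (0 genes), 1 passed with no filter, 1 with only the groups compared, 6 with DESeq2, 7 without 3 libraries and 0 to 4 with 1 library left out. The cause was not tested. Of 13 results that passed, Ccl11 averaged over genotypes passed in all 23 alternatives, and none of the 13 changed sign. Of 225 that did not, 22 passed and 97 changed sign somewhere. Over all genes, the alternatives called 214 to 5589 for the averaged age contrast (3712), 49 to 3523 within KO (349), 38 to 2208 within WT (161), 1 to 7 for KO at 2 months, 1 to 7 for KO at 15 months (1 each), 1 to 5 for KO averaged (1) and 0 to 1 for the difference (0).

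KO and WT hearts of 1 age share replicate numbers, but hearts of the same number did not all deviate together (correlations −0.44 to 0.31 between genotypes and −0.12 to 0.32 between ages), so the numbers were not read as pairs, and the replicate block is an alternative only. The limits are 3 or 4 hearts a group, few reads for the cytokines, and libraries whose length slope moves with age.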

Other observations

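Lcn2, which encodes a protein that binds bacterial iron carriers, spread most widely of the tested genes in aged hearts (highest over lowest), at 0.485, 0.939, 4.61 and 3.15 CPM in KO and 2.83, 0.570, 0.292 and 1.47 CPM in WT hearts, against 1.11, 1.20 and 1.496 CPM in KO and 1.09, 1.13 and 1.12 CPM in WT hearts at 2 months. The young hearts lay close together in both genotypes. Nlrp3, the sensor of the inflammasome, had 28 and 51 reads in aged KO and WT hearts and 13 and 21 in young KO and WT hearts. Ccl5, a chemokine of T cells and platelets, had 34 and 22 reads in aged KO and WT hearts and 9 and 3 in young KO and WT hearts, too few in both genes for the test.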
